A study of Homo sapiens with 4 samples.

Results

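To investigate how the genes of cellular iron handling responded to loss of LDB1, RNA-seq values of 10 genes were followed in human leukemia cells. The genes were TFRC, SLC11A2 and STEAP3 (uptake), SLC25A37 (import into mitochondria), FTH1 and FTL (storage), SLC40A1 (export), HMOX1 (release from heme), and ACO1 and IREB2 (sensing). They were taken by gene name from a table of 28412 genes, and all 10 had a row. The cells were labelled NB4, an acute promyelocytic leukemia line. In 2 libraries the cells carried the lentiviral control vector sh-NC, although a label of these samples also calls them untreated, and in 2 libraries they carried the vector sh-LDB1. Infected cells of the study were selected with puromycin. Which of the study's LDB1 shRNAs the sequenced cells carried was not given in the sources used here, and neither was whether the replicates were separate infections or cultures, so the p-values measure only the spread between these samples. Values are FPKM, fragments scaled to gene length and to a size of each library that held a median-of-ratios scaling, described below. Each library held between 14023238 and 16212415 recovered reads (reads computed back from the FPKM).

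LDB1, the LIM domain-binding adaptor that was targeted, measured 135 and 120 FPKM with sh-NC against 10.2 and 9.47 FPKM with sh-LDB1, which left 7.73% of the control level. The labelled cell type was checked against marker genes. Of 8 promyelocyte markers, 6 had a row, and they summed to between 5.06 and 12.7 FPKM per library. ELANE, the neutrophil elastase gene, was listed at 0 in 3 of the 4 libraries, and MPO and CTSG were the markers without a row. All 14 erythroid markers had a row, and they summed to 3962 and 4151 FPKM with sh-NC but to 327 and 293 FPKM with sh-LDB1. By mean over the 4 libraries, the highest of them were HBZ, HBA2 and HBA1, the genes of alpha-type globin chains. The most abundant markers in these libraries were therefore not those of the labelled cell type, and the erythroid markers were higher in sh-NC. In bulk RNA, fewer cells of a type and less RNA per cell cannot be told apart.

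Iron enters most cells bound to transferrin. The transferrin receptor TFRC carries it into endosomes, the reductase STEAP3 turns ferric into ferrous iron, and the transporter SLC11A2 (DMT1) moves it into the cytosol. SLC25A37 (mitoferrin-1) brings it into mitochondria for heme and iron-sulfur clusters. Ferritin, a shell of FTH1 and FTL chains, stores the rest, and SLC40A1 (ferroportin) exports it. Red cell precursors, which build hemoglobin, are among the heaviest users of this pathway. The proteins of ACO1 (IRP1) and IREB2 (IRP2) bind iron-responsive elements, RNA hairpins with a CAGTGN loop. Bound to an element in a 5' UTR they block translation, and bound to those in the 3' UTR of TFRC they stabilize the mRNA.

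These elements are shown because they tie the members to each other and were not used to choose them. The untranslated regions of all protein-coding transcripts of GENCODE release 44 (GRCh38) were searched for a C, any 5 bases, the loop CAGTGN and any 5 bases, where the 5 bases before the loop could pair with the 5 after it (A-T, G-C or G-T). Only the transcript strand was read. Of 19702 protein-coding genes, 181 (0.919%) held such a stretch. Among the 10 iron genes, 4 held it: TFRC, FTH1, FTL and SLC40A1, with 7 matches in all, here called elements. Elements of another form would be missed, so this is no full count of the elements of a gene. Each is printed 5' to 3' in 27 bases, with the loop in capitals.
TFRC element 1, 3' UTR, chr3:196050980-196051006, minus strand: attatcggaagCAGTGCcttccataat
TFRC element 2, 3' UTR, chr3:196050576-196050602, minus strand: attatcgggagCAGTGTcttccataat
TFRC element 3, 3' UTR, chr3:196050511-196050537, minus strand: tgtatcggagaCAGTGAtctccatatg
TFRC element 4, 3' UTR, chr3:196050464-196050490, minus strand: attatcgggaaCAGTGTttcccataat
FTH1 element 1, 5' UTR, chr11:61967575-61967601, minus strand: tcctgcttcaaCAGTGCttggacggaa
FTL element 1, 5' UTR, chr19:48965336-48965362, plus strand: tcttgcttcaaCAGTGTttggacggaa
SLC40A1 element 1, 5' UTR, chr2:189580662-189580688, minus strand: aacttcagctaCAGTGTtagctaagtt
The elements of the ferritin chains shared 25 of 27 bases and differed at C3T and C17T (FTH1 base, position from the 5' end of the printed stretch, FTL base). A match of letters is a description of the transcript, and no protein binding was measured here.

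Results showed that 9 of the 10 genes reached the mean of 1 FPKM needed for testing, all but HMOX1. At a limma adjusted p-value below 0.05, 8 of the 9 were lower and 1 was higher in sh-LDB1. Over all 13300 genes tested, 37.4% were lower and 29.9% higher by this rule, or 67.4% in all. With a fold change of FPKM + 1 above 2 or below 0.5 as well, which is the fold-change threshold used throughout, 3 genes were lower (TFRC, STEAP3 and SLC25A37) and 1 was higher (FTL), against 10.3% lower and 9.5% higher, or 19.8% in all, of all genes. The median log2 fold change of the 9 genes was -0.56, and that of all genes tested was -0.08. For each of the 10 genes, both values of one group lay above both values of the other, which was also the case for 84.6% of all genes tested. The deposited scaling bears on the small changes. When the libraries were scaled to the same summed FPKM, the fold changes moved up by a median of 0.15 on the log2 scale, and lower genes made up 38.5% of the calls rather than 52.0%. TFRC then fell by 0.94, just short of a fold change of 0.5, while STEAP3, SLC25A37 and FTL stayed past the fold-change threshold.

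**Figure D1:**
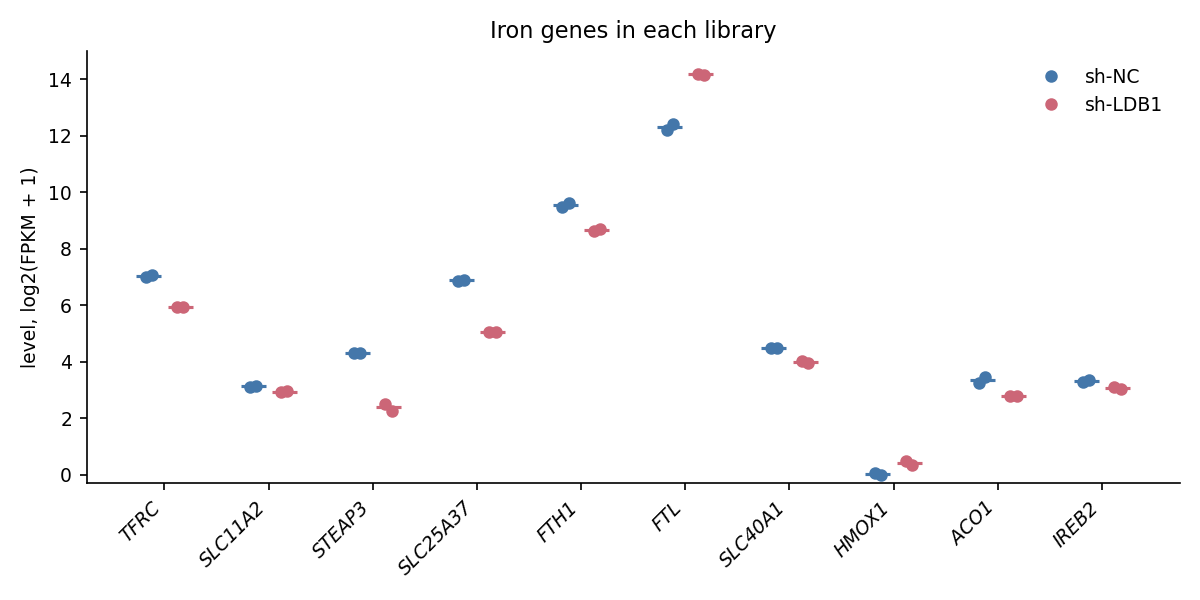
Level of each iron gene in each library on the log2(FPKM + 1) scale, with 2 points and a bar at their mean for sh-NC and for sh-LDB1. FTL is the only gene of the 9 tested whose sh-LDB1 points lie above its sh-NC points, and HMOX1 lies near 0 in all 4 libraries.

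Of the uptake genes, TFRC (chromosome 3, 196012511 to 196082153, minus strand) measured 128 and 133 FPKM with sh-NC against 60.2 and 59.6 FPKM with sh-LDB1. Both sh-LDB1 libraries held less than either sh-NC library, and the level that remained was 45.8% of the control. This was a log2 fold change of -1.11 ± 0.0413 SE (limma adjusted p = 0.00012). STEAP3 (chromosome 2, 119223831 to 119265652, plus strand) measured 19.1 and 18.6 FPKM with sh-NC against 4.71 and 3.82 FPKM with sh-LDB1. It lost the largest share of its level among the 9 genes tested, with 22.6% left and a log2 fold change of -1.92 (standard error 0.0954, limma adjusted p = 0.000195). Its lowest library rested on 264 recovered reads. STEAP3-AS1, which overlaps it on the opposite strand, was at 0.096 to 0.19 FPKM.

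SLC11A2 (chromosome 12, 50979401 to 51028566, minus strand) measured 7.68 and 7.80 FPKM with sh-NC against 6.54 and 6.87 FPKM with sh-LDB1. The groups lay close to each other, and the log2 fold change of -0.18 ± 0.056 (SE) only just passed the test (limma, adjusted p = 0.0416). The call was lost without sh-NC replicate 1 (adjusted p = 0.0992), sh-NC replicate 2 (0.125), sh-LDB1 replicate 1 (0.202) or sh-LDB1 replicate 2 (0.11), and at the same summed FPKM the change was -0.03. The gene gives transcripts with different 3' ends, some of which are known to carry an iron-responsive element, though none held the letters searched above, and the table gave 1 value for all of them. TFRC, STEAP3 and SLC25A37 are also on a list that the study made of LDB1-bound genes whose expression changed. The list was drawn up with these libraries and took only genes that changed in them, so it is not independent evidence. The share of all genes on it was not worked out here.

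LDB1 works in a complex with GATA and E-box binding factors, so the promoters of the members were read for the letters GATAA on both strands. RefSeq windows of 300 bases (250 before and 50 after the start, GRCh38.p14) were found for 7 members, with 11 windows in all. The letters were present in at least 1 window of 3 members, namely STEAP3, SLC11A2 and IREB2. By window this was 3 of 11, near the 22.7% of all 35116 windows. That of STEAP3 is shown because STEAP3 is the member with a match that passed the fold-change threshold. It was therefore picked by its change in these data, and binding of a GATA factor was not measured here. The match, in capitals, begins at position -100 from the start.
STEAP3 promoter, chr2:119223722-119223751, plus strand: gtggccgagccgGATAAgctgcggcgggct
The windows of TFRC, FTL, SLC40A1 and ACO1 did not hold these letters, and FTH1, HMOX1 and SLC25A37 had no window to read.

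SLC25A37 (chromosome 8, 23528956 to 23575463, plus strand), the mitochondrial iron importer of red cell precursors, was at 116 and 117 FPKM in sh-NC. In sh-LDB1 it was at 32.5 and 32.4 FPKM. The replicates of each group lay within 2 FPKM of each other, and 27.8% of the control level was left. This was a log2 fold change of -1.81 ± 0.0378 SE (limma adjusted p = 6.93e-05). SLC25A28 (mitoferrin-2), the importer found in most tissues, was lower by a smaller amount, with 9.83 ± 0.293 FPKM in the control cells and 5.84 ± 0.469 FPKM after knockdown (SD over 2 libraries each). Its log2 fold change was -0.66 (limma, adjusted p = 0.00154). It is no member and was named after its values were seen, as the other mitoferrin. The difference between these changes was not tested.

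The ferritin chains moved in opposite directions. FTL (chromosome 19, 48965309 to 48966879, plus strand), the light chain, measured 4723 and 5381 FPKM with sh-NC against 18604 and 18139 FPKM with sh-LDB1. It was the most abundant gene of the table in both sh-LDB1 libraries, and it ranked 5 and 4 in the sh-NC libraries. The mean rose 3.64-fold, or 1.87 ± 0.0936 (SE) on the log2 scale (limma, adjusted p = 0.000198). FTH1 (chromosome 11, 61959718 to 61967634, minus strand), the heavy chain that oxidizes ferrous iron, measured 709 and 787 FPKM with sh-NC against 396 and 416 FPKM with sh-LDB1. It fell to 54.3% of the control level, short of the fold-change threshold (log2 fold change -0.88 ± 0.0697 SE, limma adjusted p = 0.000621).

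Per length of gene, FTL therefore went from 6.66 and 6.84 times FTH1 in sh-NC to 47.0 and 43.6 times FTH1 in sh-LDB1. The ratio averaged 6.75 ± 0.121 for sh-NC and 45.3 ± 2.42 for sh-LDB1 (SD, n = 2 each). The ratio was higher in both sh-LDB1 libraries than in either sh-NC library. With 2 libraries a group, a two-sided exact permutation test gives p = 0.333, the smallest it can give. The summed level of both chains went from 5432 and 6168 FPKM to 19000 and 18555 FPKM. FTL alone took 1.48% and 1.68% of all FPKM with sh-NC, but 6.52% and 6.45% with sh-LDB1.

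The ferritin values rest on 12783 to 261695 recovered reads per library, so counting error was small beside the spread between replicates. Reads of these genes can be shared with processed pseudogenes. The 16 FTH1 pseudogenes of the table took between 1.30% and 1.61% of the reads of FTH1 and its pseudogenes together, and the 3 FTL pseudogenes took at most 0.0574%. FTH1 also overlaps BEST1 on the opposite strand, which was at 0.129 to 0.371 FPKM, and the use of strand was not given in the sources used here. With no filter on low genes, the adjusted p-value of FTL was 0.0897. With no filter and no trend of variance on level, an alternative chosen after seeing the data, it was 0.00288. The value of the fold change was 1.87 in both.

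**Figure D2:**
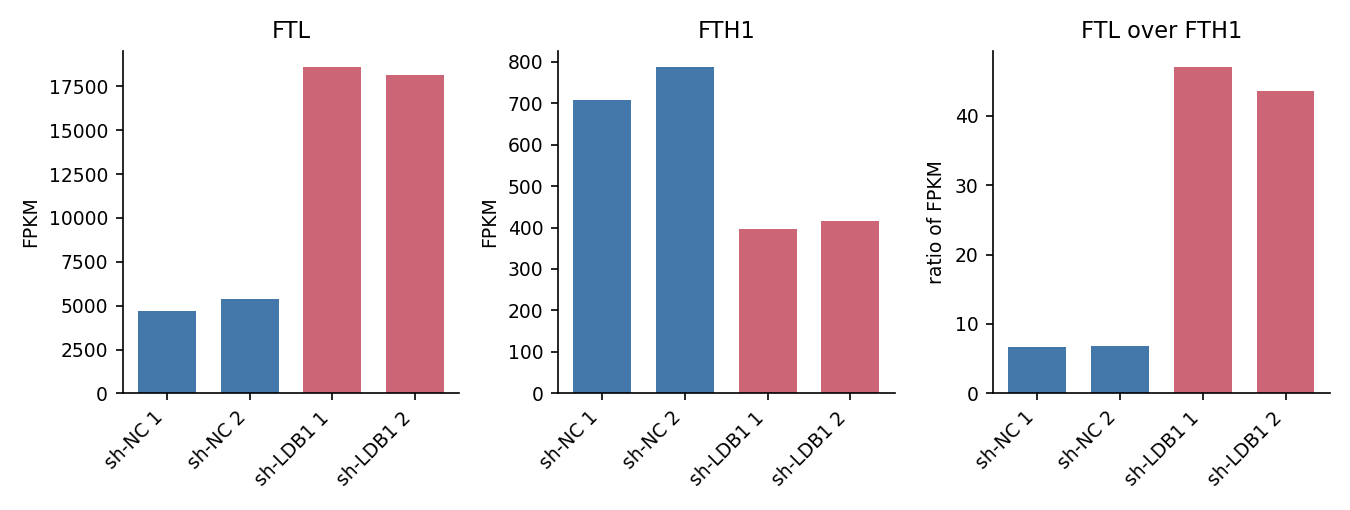
FPKM of FTL (left) and FTH1 (middle) and the ratio of FTL to FTH1 (right) in each library, 1 bar a library with every axis starting at 0. FTL reaches 18604 and 18139 FPKM in sh-LDB1, FTH1 drops to 396 and 416 FPKM, and the ratio goes from at most 6.84 to at least 43.6.

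SLC40A1 (chromosome 2, 189560590 to 189583758, minus strand), the iron exporter, measured 21.2 and 21.7 FPKM with sh-NC against 15.3 and 14.4 FPKM with sh-LDB1. It fell to 69.2% of the control level (log2 fold change -0.50 ± 0.0519 SE, limma adjusted p = 0.00132). The groups were apart, and the change was under the fold-change threshold. It was -0.34 at the same summed FPKM.

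HMOX1 (chromosome 22, 35380361 to 35394214, plus strand), the inducible heme oxygenase that frees iron from heme, was close to the limit of what these libraries can show. It measured 0.0514 and 0 FPKM with sh-NC against 0.389 and 0.275 FPKM with sh-LDB1. These values came from 2, 0, 15 and 10 recovered reads. A count of 0 allows up to 3 reads, or 0.0846 FPKM in that library. The summed reads gave a ratio of 12.4 with an exact 95% binomial interval from 3.09 to 108, which covers counting error only. The gene was under the filter and was not tested. HMOX2, the heme oxygenase made without induction, measured 12.7 and 11.5 FPKM with sh-NC against 13.7 and 13.4 FPKM with sh-LDB1 (limma, adjusted p = 0.0908). It was named after its values were seen, as the other heme oxygenase.

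Of the sensors, ACO1 (chromosome 9, 32384603 to 32454769, plus strand), a cytosolic aconitase that binds the elements when it lacks its iron-sulfur cluster, was at 8.62 and 9.95 FPKM in sh-NC. In sh-LDB1 it was at 5.96 and 5.95 FPKM. It fell to 64.1% of the control level (log2 fold change -0.56 ± 0.0808 SE, limma adjusted p = 0.00379). IREB2 (chromosome 15, 78437431 to 78501453, plus strand), whose protein is degraded when iron is plentiful, measured 8.71 and 9.29 FPKM with sh-NC against 7.61 and 7.21 FPKM with sh-LDB1. Its change was small (log2 fold change -0.25 ± 0.0619 SE, limma adjusted p = 0.0218). The call of IREB2 was lost without sh-NC replicate 2 (adjusted p = 0.0834), sh-LDB1 replicate 1 (0.0694) or sh-LDB1 replicate 2 (0.124), and at the same summed FPKM the change was -0.10.

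The sensors stood at a like level in sh-NC, where their libraries overlapped, with an ACO1 to IREB2 ratio of 0.99 and 1.07. In sh-LDB1 the ratio was 0.782 and 0.825. By level per length, the order of the members in sh-NC was FTL, FTH1, TFRC, SLC25A37, SLC40A1, STEAP3, ACO1, IREB2, SLC11A2 and HMOX1, and ACO1 and IREB2 were the only neighbours whose libraries overlapped. In sh-LDB1 the order was the same down to SLC40A1, and then IREB2, SLC11A2, ACO1, STEAP3 and HMOX1 followed, with no overlap between neighbours.

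The other genes of the pathway were taken from a list of 65 genes, of which 62 had a row and 50 were tested. By the limma adjusted p-value 25 were lower and 14 higher, and 11 passed in neither direction, beside the 37.4% lower and 29.9% higher of all genes tested. Past the fold-change threshold 13 were lower and 3 higher, beside the 10.3% and 9.5% of all genes tested. The list median was -0.15, against -0.08 for all genes tested. The counts by role that follow use the adjusted p-value and are to be read beside the same shares of all genes.

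Among 10 further uptake genes tested, 4 were lower and 5 higher. TFR2, the second transferrin receptor, which is restricted to liver and red cell precursors, fell from 56.2 and 53.5 FPKM to 7.34 and 7.79 FPKM (log2 fold change -2.70, limma adjusted p = 6.77e-05). SLC39A8, a zinc and iron importer, fell by 2.09 on the log2 scale. LRP1, a scavenger receptor that takes up heme bound to hemopexin, measured 0.362 and 0.267 FPKM with sh-NC against 5.74 and 5.44 FPKM with sh-LDB1 (log2 fold change 2.33). HFE, the hemochromatosis protein that binds transferrin receptors, differed by 1.37 on the log2 scale, with 0.653 and 0.406 FPKM in the control cells and 3.07 and 2.81 FPKM after knockdown. Both genes reached the filter of 1 FPKM only through the group where they were high, so the filter itself rests on the difference. With no filter their adjusted p-values were 0.00135 and 0.0071 (limma). NDFIP1, an adaptor that sends SLC11A2 protein for degradation, completes the uptake genes that were higher past the fold-change threshold, with 13.6 and 14.5 FPKM before and 29.4 and 29.7 FPKM after knockdown, and was named after its values were seen.

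Of 12 further mitochondrial genes tested, 9 were lower and 2 higher. ABCB10, a mitochondrial transporter that stabilizes mitoferrin-1, fell from 56.8 and 60.7 FPKM to 4.46 and 6.27 FPKM (log2 fold change -3.24, limma adjusted p = 0.000167). BOLA3, which serves iron-sulfur cluster formation, fell by 1.39 on the log2 scale. The higher genes were ISCU (0.61), the scaffold on which clusters are built, and HSCB (0.57), a chaperone of that step, and both were named after their values were seen. The call of HSCB (limma, adjusted p = 0.0182) was lost under 4 of 13 processing alternatives, among them no filter (0.055). With 1 library left out, its log2 fold change lay between 0.40 and 0.75.

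For storage, NCOA4, the receptor that delivers ferritin to autophagy, measured 81.6 and 84.9 FPKM with sh-NC against 40.8 and 41.2 FPKM with sh-LDB1 (limma, adjusted p = 0.000146), so that 49.3% was left. PCBP1, an iron chaperone that loads ferritin, rose from 151 and 132 FPKM to 164 and 179 FPKM. This was 0.28 on the log2 scale (limma, adjusted p = 0.04). The call was lost under 7 of 13 processing alternatives, among them no filter (0.0981) and a replicate block (0.059). With 1 library left out, the log2 fold change of PCBP1 lay between 0.18 and 0.38. For export, HEPH (hephaestin), the ferroxidase that works beside ferroportin, fell from 33.4 and 34.8 FPKM to 4.82 and 5.03 FPKM (log2 fold change -2.57, limma adjusted p = 6.77e-05). HAMP, the hormone hepcidin that removes ferroportin, measured 0.842 and 0.879 FPKM with sh-NC against 1.60 and 1.58 FPKM with sh-LDB1. It reached the filter only through sh-LDB1. It passed at a limma adjusted p of 0.0241. The call was lost under 6 of 12 processing alternatives, among them no filter (0.0503) and a replicate block (0.0508). With 1 library left out, the log2 fold change of HAMP lay between 0.46 and 0.49.

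Of 7 further heme genes tested, 3 were lower and 1 was higher. BLVRB and BLVRA, named as biliverdin reductases, fell by 1.67 and by 0.63 on the log2 scale. BLVRB went from 325 and 289 FPKM to 95.7 and 96.1 FPKM. FLVCR1, a heme exporter, fell by 1.05. SLC46A1, a folate and heme importer, measured 0.473 and 0.597 FPKM with sh-NC against 1.31 and 1.69 FPKM with sh-LDB1. It reached the filter only through sh-LDB1. Its adjusted p was 0.0166, or 0.0355 with no filter (limma), and the call was lost without sh-NC replicate 1 (0.0526) or sh-LDB1 replicate 2 (0.0678).

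Of 12 further regulators tested, 5 were lower and 4 higher. ERFE, the hormone erythroferrone by which red cell precursors lower hepcidin, fell from 4.74 and 5.28 FPKM to 0.489 and 0.592 FPKM (log2 fold change -1.96). It reached the filter only through sh-NC, and its adjusted p was 0.000228, or 0.00191 with no filter (limma). HJV (hemojuvelin), NFE2L2 (NRF2), an activator of ferritin and other antioxidant genes, and EPAS1 (HIF-2 alpha) rose by 0.89, 0.81 and 0.57 on the log2 scale. None of the 4 higher genes passed the fold-change threshold.

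Genes outside the members that are known for an iron-responsive element include ALAS2, CDC14A and CDC42BPA. The letters searched above were found in ALAS2 and CDC14A. ALAS2, which starts heme synthesis in red cell precursors, fell from 163 and 171 FPKM to 17.5 and 15.2 FPKM (log2 fold change -3.27, limma adjusted p = 7.35e-05). CDC14A and CDC42BPA did not pass (adjusted p = 0.0869 and 0.0563). Of the members with the letters, TFRC, FTH1 and SLC40A1 were lower and FTL was higher, so genes with the letters were found in both directions.

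**Figure D3:**
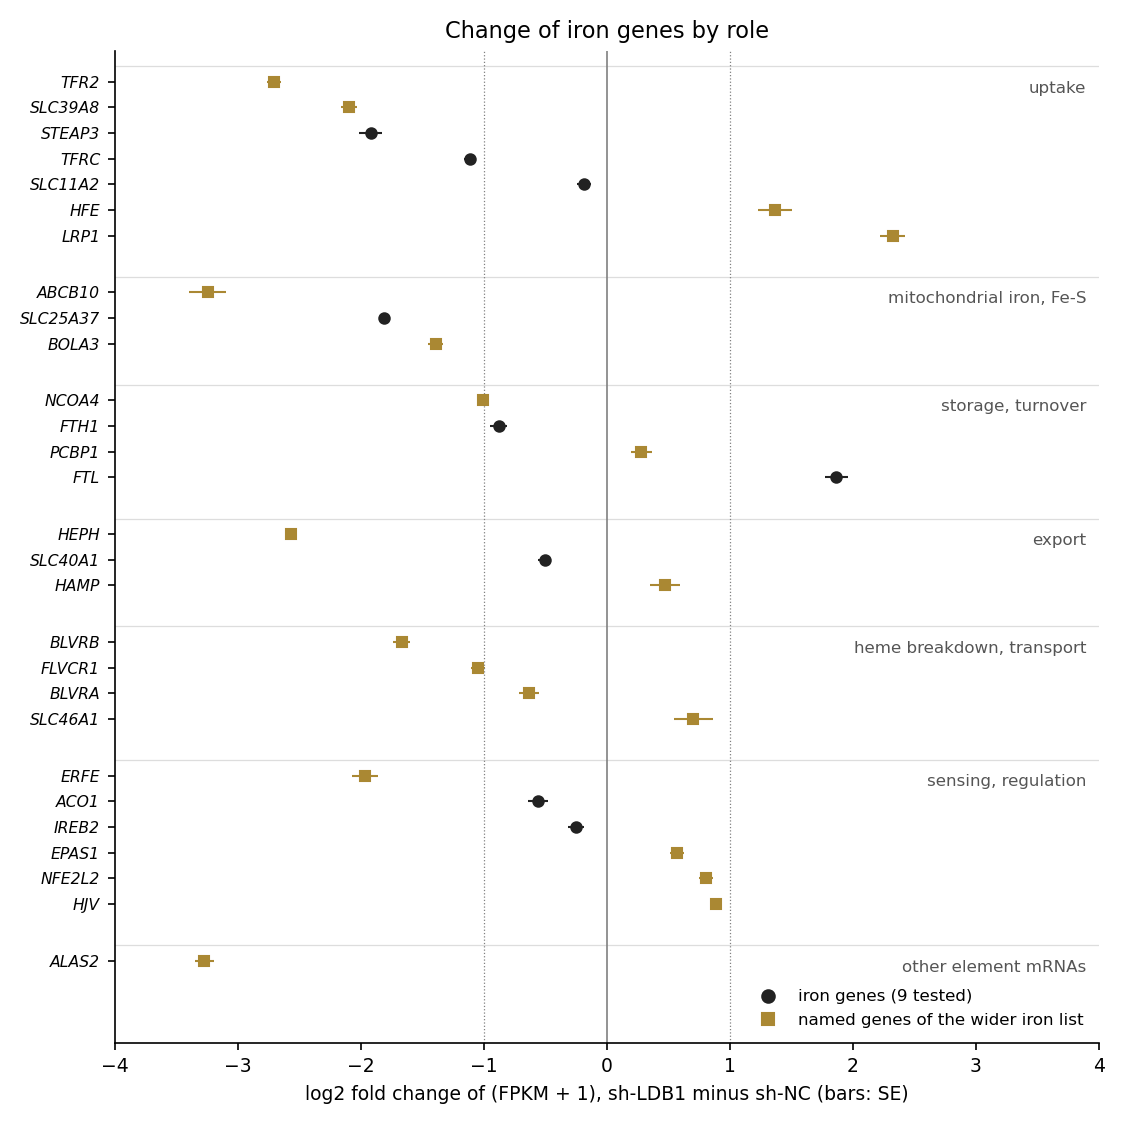
Log2 fold change of FPKM + 1, sh-LDB1 minus sh-NC, with standard errors, for the 9 iron genes tested (black circles) and genes of the wider list named in the text (gold squares), ordered by role. Dotted lines mark a fold change of 2 and of 0.5. Among the genes drawn, those furthest to the left are ALAS2 (-3.27) and ABCB10 (-3.24), and those furthest to the right are LRP1 (2.33) and FTL (1.87).

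Markers of cell type and growth also differed between the groups. All 13 erythroid markers tested were lower past the fold-change threshold, with a median log2 fold change of -3.27, and ALAS2 belongs to both lists. All 15 cell cycle genes were lower by the adjusted p-value, and 13 of them also passed the fold-change threshold. Of all genes tested, 37.4% were lower by the adjusted p-value and 10.3% were lower past the threshold too. The median of the cell cycle genes was -1.28, and their summed level went from 1169 and 1227 FPKM to 426 and 437 FPKM. By mean over the 4 libraries, the highest of them were PCNA, CDC45 and TOP2A. Of 10 monocyte and macrophage markers, 6 had a row and LYZ alone was tested. It rose by 1.59 on the log2 scale and made up most of the list's sum of 5.94 to 20.4 FPKM, while CD14, CSF1R, VSIG4, FCGR1A and CD68 stayed under 1 FPKM in every library. Of the promyelocyte markers, 4 were tested. PRTN3 was higher by 1.42 on the log2 scale, and AZU1 was higher by 0.94, short of the fold-change threshold. CEBPE measured 1.55 and 1.27 FPKM with sh-NC against 0.924 and 0.34 FPKM with sh-LDB1, and neither it nor CD33 passed (adjusted p = 0.081 and 0.104). MS4A3 was at 0.472 and 0.0971 FPKM with sh-NC and listed at 0 in both sh-LDB1 libraries. The part of these shifts in the changes of the iron genes was not tested.

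**Figure D4:**
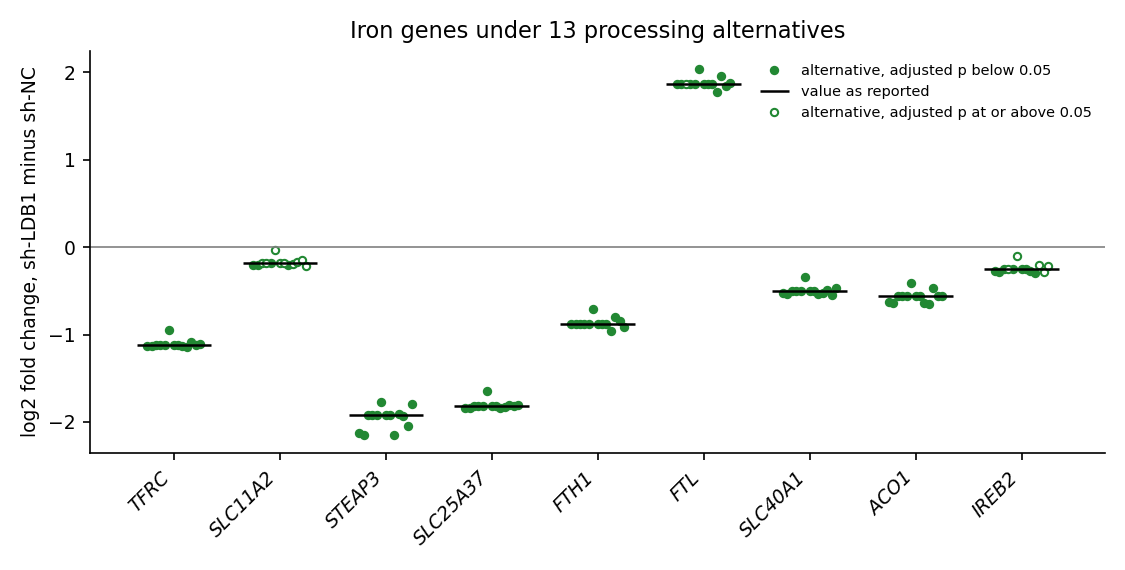
Log2 fold change of the 9 iron genes tested under 13 processing alternatives (points, open where the adjusted p-value was 0.05 or more) beside the value as reported (black line). The points of STEAP3, SLC25A37, TFRC, FTH1, ACO1 and SLC40A1 are all filled and below 0, FTL has 1 open point of 13, and SLC11A2 and IREB2 have several and lie close to 0.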

How the data were processed

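RNA-seq libraries of total RNA were prepared by the authors with an Illumina TruSeq kit, filtered and mapped with HISAT (HISAT2 2.0.5 and hg38 in the submitters' processing notes). The authors deposited 1 table of FPKM, 1 value per gene and library, with replicates not pooled. The annotation, the counter and the strand setting were not given in the sources used here. It held 0 per-sample columns of no sample.

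Groups came from the sample titles. A gene's FPKM values are whole multiples of the value of 1 read, so reads were recovered by searching, between 0.1 and 1.5 times the length in GENCODE 44, for the gene length at which all 4 values were whole within 0.002 reads. This succeeded for 98.5% of the 28193 annotated genes, including all 10 members. The deposited values already held a median-of-ratios scaling, with the same median ratio of 1.0083 in each library.

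Genes whose 4 values averaged 1 FPKM or more were tested on log2(FPKM + 1) with limma 3.58.1 in R 4.3.3 (eBayes with trend, no replicate block), with Benjamini-Hochberg adjustment over all 13300 genes. This scale understates changes of low genes. A call over the fold-change threshold needed an adjusted p below 0.05 and a ratio of FPKM + 1 over 2 or under 0.5. The steps were tested on simulated data. Python 3.11.15, numpy 2.4.6 and pandas 2.3.3 were used, and sequences were read from GENCODE and RefSeq.

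The members and all gene lists were chosen with earlier results of these data known. The text names all members, LDB1, for each role of the wider list up to 4 genes past the adjusted p with the largest change, and the highest markers. Some genes that this rule picks are not reported here. A few further genes are named after their values were seen, as the text says. Alternatives of pseudocount, filter, scaling, trend, block, model, threshold and left-out library were run.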

Additional observations from a re-analysis of the deposited data

How the results depend on the processing

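Every alternative kept the direction of every member tested and of every gene of the wider list picked by the naming rule. TFRC, STEAP3, SLC25A37, FTH1, SLC40A1 and ACO1 kept an adjusted p below 0.05 under all 13 alternatives, FTL under 12, IREB2 under 8 and SLC11A2 under 4. As reported, 1 iron gene was called higher and 3 lower past the fold-change threshold. With no filter 0 iron genes were called higher, since FTL had an adjusted p of 0.0897. Scaled to the same summed FPKM, 2 were called lower. With no fold-change threshold 8 iron genes were lower, 14 and 25 genes of the wider list were higher and lower, and over all genes 3983 were higher and 4978 lower. With limma treat, which tests against the threshold, 1 iron gene was called higher and 2 were called lower. By this test 1 gene of the wider list was higher and 9 were lower. Over all genes 568 were higher and 581 lower, against 1264 and 1371 as reported. With at least 1 FPKM in every library, 1 gene of the wider list was higher and 845 of all genes. With the smallest pseudocount, 0.01, 1731 and 1921 of all genes were called, and voom on recovered reads called 1743 and 1919. The replicate number as a block called 1 iron gene higher and 3 lower, and 1274 and 1386 of all genes. Same-numbered samples did not deviate together (correlation 0.0196), so the numbers were not taken as pairs. Leaving out 1 library gave 1251 to 1289 higher and 1352 to 1430 lower over all genes, where a lone sample is assumed to vary like the other group. It gave 1 iron gene higher and 3 lower each time, and 2 to 3 genes of the wider list higher and 11 to 12 lower. Among the members, the low level of HMOX1 kept it from being tested, and its few reads limit the precision of its ratio.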
